A study of Mus musculus with 4 samples.

Results

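The secondary granule genes of neutrophils are described here: Camp, Ltf, Ngp, Lcn2, Cd177, Chil3, Fcnb and Wfdc21. They were taken by symbol, and 8 of 8 were found among the 55487 genes of the count table and passed the filter on low counts. Liver myeloid cells of mice were the source of RNA, with 2 libraries from the genotype LysM-Cre IL10R fl/fl and 2 from LysM-Cre IL10R wt/wt. Both genotypes carry LysM-Cre, in which the lysozyme M gene drives the recombinase in macrophages, monocytes and neutrophils, so that the libraries differ by label only in the IL10R allele. The sort kept CD45+ CD3- CD11c- CD11b+ cells after Percoll enrichment, and this gate holds neutrophils together with monocytes and macrophages. Poly(A) RNA was sequenced, and the totals were 17750343 and 17154042 counts in the fl/fl libraries, against 22694136 and 26441014 counts in the wt/wt libraries. Age, sex, any treatment and whether the libraries of a genotype came from separate animals are not given in the labels used here, and p-values therefore measure only the spread between these libraries.

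Neutrophils fill their granules in the order in which the proteins are made in the bone marrow. Primary granule proteins such as myeloperoxidase and elastase are made at the promyelocyte stage, secondary (specific) granule proteins at the myelocyte and metamyelocyte stages, and gelatinase granule proteins after them. Circulating neutrophils carry the finished proteins and, for most of these genes, little of the messenger RNA. C/EBP epsilon, encoded by Cebpe, is required for the secondary granule programme: mice without it form neutrophils that lack these granules and their contents. Camp (the cathelicidin CRAMP), Ltf (lactoferrin, which binds iron), Ngp (a cystatin-related granule protein), Lcn2 (lipocalin 2, which binds bacterial siderophores) and Chil3 (the chitinase-like protein Ym1) are soluble contents. Cd177 is a membrane-anchored surface protein of neutrophils, Fcnb (ficolin B) is a lectin that recognises carbohydrates on microbes, and Wfdc21 belongs to the whey acidic protein family.

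Camp, Ngp and Ltf lie close together on chromosome 9 (GRCm38, GENCODE M21). Camp spans 109847379 to 109849617 on the minus strand, Ngp spans 110419747 to 110423012 on the plus strand and Ltf spans 111019271 to 111042767 on the plus strand, with gaps of 0.57 Mb from Camp to Ngp and 0.596 Mb from Ngp to Ltf. Fcnb (28076378 to 28084885) and Lcn2 (32384633 to 32388252) are both on the minus strand of chromosome 2, 4.3 Mb apart. Chil3 is on chromosome 3 (106147554 to 106167564, minus strand), Cd177 on chromosome 7 (24743983 to 24760311, minus strand) and Wfdc21 on chromosome 11 (83746940 to 83752642, plus strand). All 8 are annotated as protein coding, and no exon of any of them overlaps an exon of another annotated gene.

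RefSeq promoter windows of GRCm38.p6, from 250 bases before to 50 bases after the gene start, were matched for 7 of the 8 genes, all but Wfdc21. The C/EBP motif TTGCNNAA, searched on both strands, was present in 4 of these 7 windows (Ltf, Ngp, Fcnb and Lcn2), and in 10.8% of all 32851 windows of that length. Because the C/EBP family acts on these genes, the stretches of Ltf, Ngp and Fcnb upstream of every annotated exon are shown, 5′ to 3′ on the strand of the gene, with C/EBP matches in capitals. They are chr9:111019042-111019270 for Ltf (plus strand), chr9:110419558-110419746 for Ngp (plus strand) and chr2:28084886-28085128 for Fcnb (minus strand).
Ltf: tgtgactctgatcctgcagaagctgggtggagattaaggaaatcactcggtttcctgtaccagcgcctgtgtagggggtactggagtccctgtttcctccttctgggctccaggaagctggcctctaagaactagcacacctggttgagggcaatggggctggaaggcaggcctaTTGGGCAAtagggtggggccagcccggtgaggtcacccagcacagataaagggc
Ngp: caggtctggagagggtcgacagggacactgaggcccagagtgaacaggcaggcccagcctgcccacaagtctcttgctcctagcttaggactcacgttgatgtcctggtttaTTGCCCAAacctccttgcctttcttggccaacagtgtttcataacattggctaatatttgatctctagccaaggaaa
Fcnb: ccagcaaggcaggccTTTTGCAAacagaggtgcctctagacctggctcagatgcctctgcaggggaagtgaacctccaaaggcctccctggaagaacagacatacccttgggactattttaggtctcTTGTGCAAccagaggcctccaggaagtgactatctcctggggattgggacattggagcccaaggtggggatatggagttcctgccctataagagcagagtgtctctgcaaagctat
The match begins 75 bases before the RefSeq start in Ltf and 138 bases before it in Ngp, and Fcnb has matches that begin 235 and 123 bases before it. A second Ngp match, 11 bases before the start, and the Lcn2 match, 216 bases before it, lie in exons of GENCODE transcripts of the same genes and are not shown. The PU.1 motif GGAAGT was found in 3 of 7 windows (Cd177, Chil3 and Fcnb; 23.8% of all windows), the GFI1 motif AAATCA in 2 (Chil3 and Ltf; 14.0%), the STAT motif TTCNNNGAA in 1 (Chil3; 8.30%) and the RUNX motif TGTGGT in 1 (Ltf; 16.8%). No motif match overlapped another in these windows, and the Camp window held none of the 5 motifs, which says only that these letters are not in it.

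In fl/fl libraries the 8 genes together took 24250 and 9761 CPM (counts divided by the TMM-scaled library size, times 1e6), against 2815 and 2264 CPM in wt/wt libraries. They made up 2.35% and 0.997% of all counts in the fl/fl libraries, against 0.276% and 0.232% in the wt/wt libraries, and the mean was 6.70-fold higher in fl/fl. The edgeR quasi-likelihood test called 6 of the 8 genes higher in fl/fl (Camp, Ltf, Ngp, Lcn2, Fcnb and Wfdc21), 0 lower, and 2 did not pass an adjusted p of 0.05 (Cd177 and Chil3). Among all 13496 tested genes it called 2.69% higher and 3.16% lower. For 8 of 8 genes both fl/fl libraries lay above both wt/wt libraries, against 28.1% of all tested genes. Their median log2 fold change was 3.07, against 0.02 over all tested genes. In bulk RNA a change in the share of cells that carry a transcript and a change in the amount per cell cannot be told apart.

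Before the single genes, Il10ra (the ligand-binding chain of the IL-10 receptor) served as a check of the labels: it had 69.3 and 14.8 CPM in fl/fl libraries, against 1111 and 993 CPM in wt/wt libraries. It was lower in fl/fl by a log2 fold change of −4.64 ± 0.68 (SE; edgeR adjusted p = 0.0193), at −6.18 when fl/fl 1 was left out and −3.92 when fl/fl 2 was. The fl/fl library with more residual Il10ra, fl/fl 1, was also the one with more of every secondary granule gene. Library fl/fl 2 stood apart from the other 3 in sex-linked genes: it had 4298 Xist counts where the other libraries had 0, and 1 count over 4 Y-linked genes, against 3455 in fl/fl 1, 5207 in wt/wt 1 and 6562 in wt/wt 2. The part of either in the difference between the fl/fl libraries was not tested.

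Of the antimicrobial and iron-binding contents, Camp was the most even between the fl/fl libraries. It had 2250 and 1756 CPM in fl/fl libraries, against 266 and 215 CPM in wt/wt libraries, and its log2 fold change was 3.06 ± 0.22 (SE; edgeR adjusted p = 0.00879). By unadjusted p it ranked 3 of all 13496 tested genes. Ltf had 3331 and 1941 CPM in fl/fl libraries, against 298 and 344 CPM in wt/wt libraries, a log2 fold change of 3.04 ± 0.29 (adjusted p = 0.00879). Ngp had 5371 and 2393 CPM in fl/fl libraries, against 439 and 477 CPM in wt/wt libraries, a log2 fold change of 3.08 ± 0.38 (adjusted p = 0.0138). In fl/fl Camp was 8.33-fold higher, Ltf 8.21-fold higher and Ngp 8.48-fold higher. Without fl/fl 1 the log2 fold change of Ngp was 2.35, while those of Camp and Ltf were 2.83 and 2.56.

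Lcn2 was also higher in both fl/fl libraries, but far more so in one of them. It had 2876 and 816 CPM in fl/fl libraries, against 119 and 151 CPM in wt/wt libraries, a log2 fold change of 3.77 ± 0.57 (adjusted p = 0.0197). Leaving out fl/fl 1 gave a log2 fold change of 2.56 for Lcn2, and leaving out fl/fl 2 gave 4.42. Hepatocytes of an inflamed liver also make lipocalin 2, and 7 hepatocyte genes, Alb and Apoa1 the most abundant among them, together had 25.1 and 87.1 CPM in fl/fl libraries, against 62.8 and 39.5 CPM in wt/wt libraries. The part of hepatocyte RNA in the Lcn2 values was not tested.

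Fcnb and Wfdc21 were the least abundant members in counts and both passed the test. Fcnb had 149 and 71.7 CPM in fl/fl libraries, against 13.5 and 11.6 CPM in wt/wt libraries, a log2 fold change of 3.13 ± 0.36 (adjusted p = 0.0120), or 2.48 without fl/fl 1. Its smallest count, 301 in wt/wt 1, has an exact 95% Poisson interval of 268 to 337, which covers counting error only. Wfdc21 had 505 and 141 CPM in fl/fl libraries, against 14.7 and 16.1 CPM in wt/wt libraries. Its log2 fold change of 4.39 ± 0.59 (adjusted p = 0.0158), a 20.9-fold difference, was the largest of the 8, at 3.16 without fl/fl 1 and 5.04 without fl/fl 2.

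Cd177 and Chil3 did not pass, although their groups did not overlap. Cd177 had 1363 and 573 CPM in fl/fl libraries, against 294 and 335 CPM in wt/wt libraries, a log2 fold change of 1.62 ± 0.38 (edgeR adjusted p = 0.0593). Chil3 had 8404 and 2069 CPM in fl/fl libraries, against 1370 and 714 CPM in wt/wt libraries, a log2 fold change of 2.33 ± 0.64 (edgeR adjusted p = 0.0865). Chil3 was the member with the widest gap inside each genotype, 4.06-fold between the fl/fl libraries and 1.92-fold between the wt/wt libraries. Without fl/fl 1 the log2 fold changes were 0.83 for Cd177 and 0.95 for Chil3, and without fl/fl 2 that of Chil3 was 3.02. Over the alternative settings the adjusted p ranged from 1.16e-19 to 0.397 for Cd177 and from 1.02e-29 to 0.759 for Chil3. Chil3 has a near-identical neighbour in Chil4 (Ym2), to which the counting assigned 1 and 0 counts in fl/fl libraries and 0 and 1 counts in wt/wt libraries. How the counting treated reads shared by both copies is not given, which leaves the Chil3 level uncertain.

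**Figure D1:**
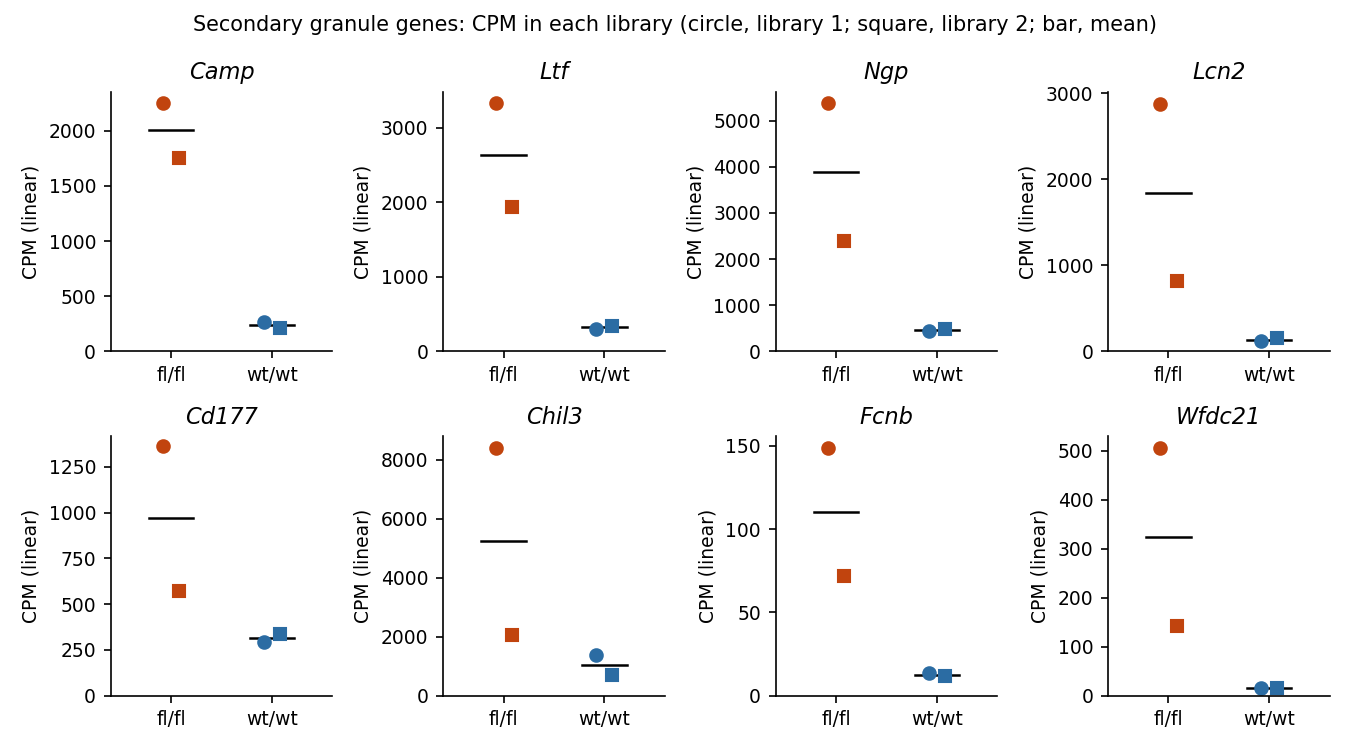
CPM of each secondary granule gene in each library on linear axes that start at 0, fl/fl left and wt/wt right; circles are library 1, squares library 2 and bars the mean of 2 libraries. Both fl/fl points lie above both wt/wt points in 8 of 8 panels, and library fl/fl 1 lies above fl/fl 2 in each.

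**Figure D2:**
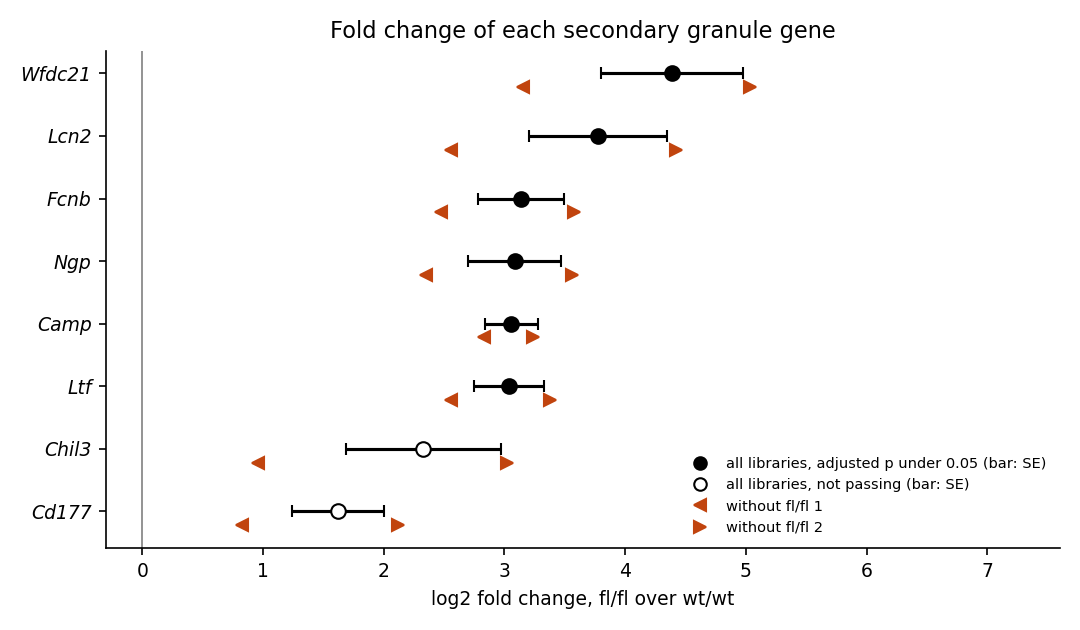
Log2 fold change of fl/fl over wt/wt for each gene with its SE (circles, filled where the edgeR adjusted p was under 0.05), and the value without fl/fl 1 or without fl/fl 2 (triangles). Wfdc21 stands highest at 4.39 and Cd177 lowest at 1.62, and the values without fl/fl 1 lie below those without fl/fl 2 for all 8 genes.

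The genes split by how far the fl/fl libraries stood apart. Levels in fl/fl 1 exceeded those in fl/fl 2 for 8 of 8 genes, against 50.1% of all tested genes, and the median log2 ratio of fl/fl 1 to fl/fl 2 was 1.21, against 0.00 over all tested genes (quartiles −0.31 and 0.31). The gap was 1.28-fold for Camp and 1.72-fold for Ltf. It was 2.07-fold for Fcnb, 2.24-fold for Ngp and 2.38-fold for Cd177, and it reached 3.53-fold for Lcn2, 3.57-fold for Wfdc21 and 4.06-fold for Chil3. Between the wt/wt libraries the ratio of library 1 to library 2 was 0.791 to 1.24 for 7 of the genes and 1.92 for Chil3. With 1 library against 1 there is no replicate for these ratios, and they carry no test.

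Each fl/fl library alone nonetheless stood above the wt/wt mean for every member. In fl/fl 1 the ratio to the wt/wt mean was 9.35 for Camp, 10.4 for Ltf, 11.7 for Ngp, 11.8 for Fcnb, 21.3 for Lcn2 and 32.7 for Wfdc21. In fl/fl 2 it was 7.30 for Camp, 6.04 for Ltf, 5.23 for Ngp, 5.71 for Fcnb, 6.05 for Lcn2 and 9.16 for Wfdc21. The genes that did not pass had 4.33 (Cd177) and 8.07 (Chil3) in fl/fl 1, while in fl/fl 2 Cd177 had 1.82 and Chil3 1.99.

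**Figure D3:**
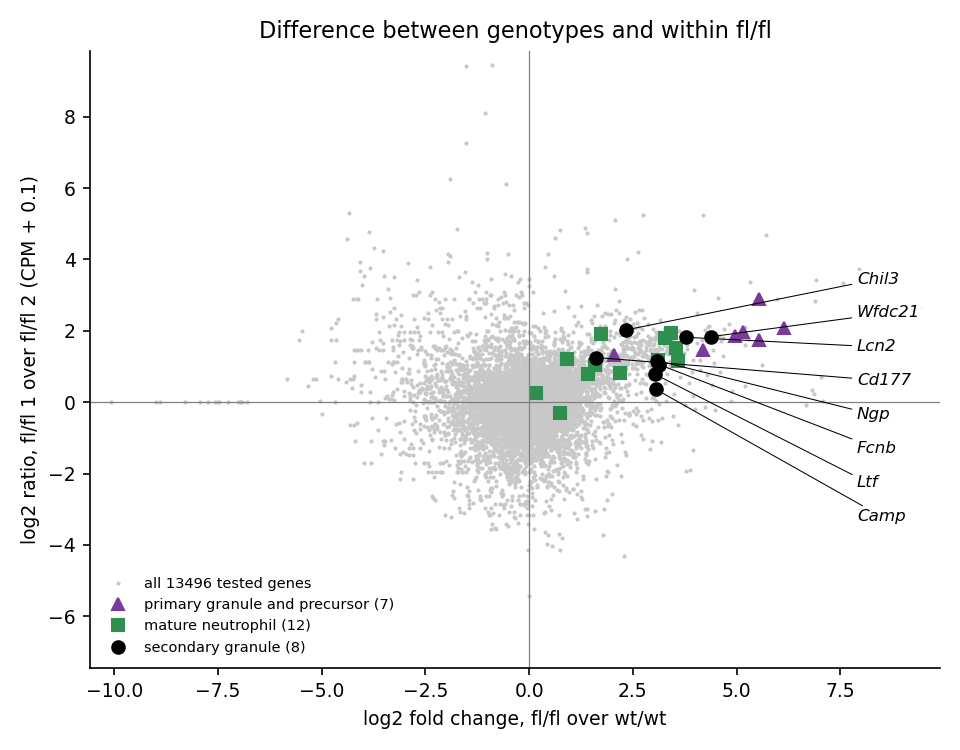
Log2 fold change of fl/fl over wt/wt (x axis) against the log2 ratio of fl/fl 1 to fl/fl 2 (y axis, CPM + 0.1) for all 13496 tested genes (grey), the 8 secondary granule genes (black), 7 primary granule and precursor genes (purple) and 12 mature neutrophil genes (green). The secondary granule genes lie right of 0 and above 0 on both axes, with Camp lowest and Chil3 highest on the y axis.

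On a scale per length (RPKM, from the union of annotated exons), which allows levels of different genes to be set side by side, Chil3 (3209 ± 2745 RPKM), Ngp (3177 ± 1723) and Camp (2642 ± 460) led in fl/fl (mean ± SD, n = 2), and their library ranges overlapped. Ltf (764 ± 285 RPKM), Wfdc21 (744 ± 592), Lcn2 (704 ± 555) and Cd177 (341 ± 197) came next in fl/fl, below Camp in both libraries. The ranges of Ltf, Wfdc21 and Lcn2 overlapped, as did those of Wfdc21, Lcn2 and Cd177, while Ltf lay above Cd177 without overlap. Fcnb was lowest in fl/fl at 82.4 ± 40.7 RPKM, below Cd177 without overlap. The order in wt/wt was Chil3 (639 ± 284 RPKM), Ngp (375 ± 22.5), Camp (317 ± 47.9), Cd177 (111 ± 10.0), Ltf (93.1 ± 9.33), Lcn2 (51.4 ± 8.47), Wfdc21 (35.6 ± 2.28) and Fcnb (9.38 ± 1.01). No pair of neighbours in that wt/wt order overlapped between libraries, and Cd177 stood 4th of the 8 in both wt/wt libraries but 7th in both fl/fl libraries.

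Other genes of the specific and gelatinase granules showed a mixed picture. Of 13 tested of 14, 7 passed as higher in fl/fl, 1 as lower and 5 did not pass, with a median log2 fold change of 2.08, or 1.29 when fl/fl 1 was left out. Abca13 (a lipid transporter of the ABC family) was higher by 3.08 ± 0.35 on the log2 scale (edgeR adjusted p = 0.0120), with 40.9 and 22.2 CPM in fl/fl libraries, against 4.13 and 3.32 CPM in wt/wt libraries. Pglyrp1, which binds bacterial peptidoglycan, had 685 and 271 CPM in fl/fl libraries, against 43.6 and 68.9 CPM in wt/wt libraries (3.09 ± 0.46, adjusted p = 0.0193; 2.23 without fl/fl 1). Hp (haptoglobin, which binds haemoglobin) and Mcemp1 (a membrane protein of myeloid cells) were higher in fl/fl by 2.08 ± 0.25 and 1.42 ± 0.21 on the log2 scale (edgeR adjusted p = 0.0132 for Hp and 0.0193 for Mcemp1). Slc11a1, which carries metal ions out of the phagosome, was the gene that was lower, at −0.96, and is named here after its values were seen. Ptx3, with 3 and 0 counts in fl/fl libraries and 0 in both wt/wt libraries, was not tested.

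Of 10 regulators of granule genes, 2 passed as higher in fl/fl, 2 as lower and 6 did not pass, and the median log2 fold change was 0.58. Cebpe was higher, with 110 and 45.4 CPM in fl/fl libraries, against 9.70 and 9.58 CPM in wt/wt libraries (3.01 ± 0.41, edgeR adjusted p = 0.0163; 2.20 without fl/fl 1). Klf5, a zinc finger factor, was higher at 3.57 ± 0.65 (adjusted p = 0.0296), with 13.4 and 5.82 CPM in fl/fl libraries, against 0.404 and 1.18 CPM in wt/wt libraries. That value was 2.81 without fl/fl 1, 2.97 without wt/wt 1 and 4.55 without wt/wt 2, and its adjusted p over the alternatives ran from 1.31e-12 to 0.224, at 0.0553 with limma-voom. Runx1, a factor of early blood cell development, was lower at −1.23 ± 0.17 (edgeR adjusted p = 0.0182). Cebpa, which acts before Cebpe in granulocyte development, was lower at −0.71 ± 0.15 (edgeR adjusted p = 0.0443). The Cebpa call was lost without fl/fl 1 (adjusted p = 0.0628) and without fl/fl 2 (0.0583), within a range of 0.000663 to 0.339 over the alternatives.

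Cebpe was also the gene, of those with a symbol, whose pattern lay nearest to that of the 8 genes. Likeness was measured over the 4 libraries as the Euclidean distance between a gene's log2 CPM, centred on its own mean, and the mean centred profile of the members. Of the 13488 tested genes outside the list, only those with a symbol were ranked. Cebpe had the smallest distance among them, 0.0552, while the members themselves lay between 0.168 (Ngp) and 1.42 (Cd177). Next came Depdc1b (0.101), Cenpf (0.109), Dtl (0.167) and Gm10282 (0.185). Cenpf encodes a kinetochore protein and Dtl a ubiquitin ligase adaptor of DNA replication control. Depdc1b had 20.1 and 9.02 CPM in fl/fl libraries, against 1.80 and 1.69 CPM in wt/wt libraries, and Cenpf had 22.9 and 8.56 CPM in fl/fl libraries, against 1.93 and 1.81 CPM in wt/wt libraries. Dtl had 7.05 and 3.08 CPM in fl/fl libraries, against 0.629 and 0.516 CPM in wt/wt libraries, and Gm10282 had 62.7 and 25.9 CPM in fl/fl libraries, against 6.02 and 6.0 CPM in wt/wt libraries. With 4 libraries the measure is a description of these profiles, not a test.

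**Figure D4:**
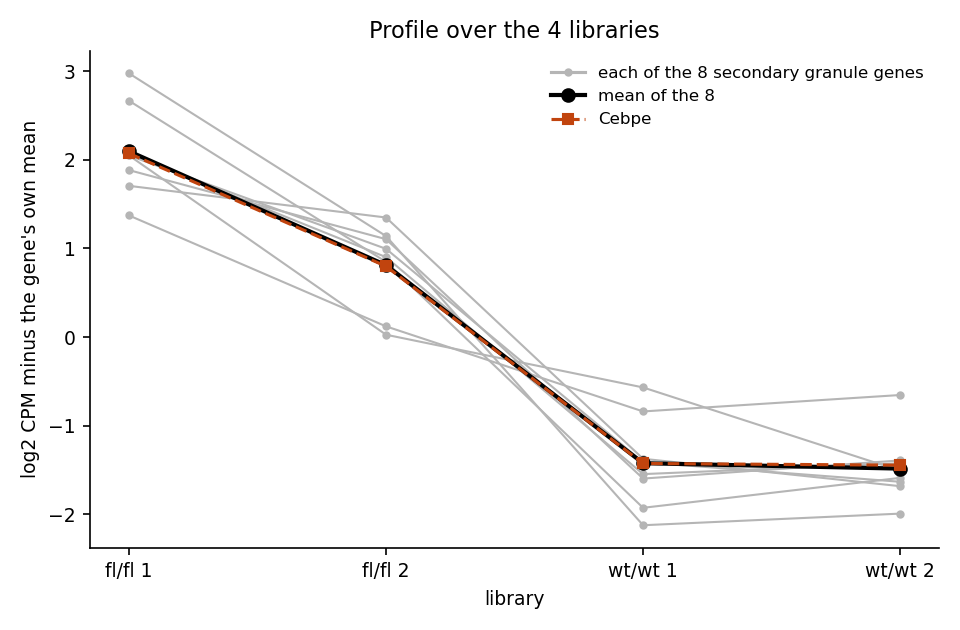
Log2 CPM minus the gene's own mean over the 4 libraries, fl/fl left and wt/wt right, for the 8 secondary granule genes (grey), their mean (black) and Cebpe (dashed). Cebpe is drawn because it was the nearest of the ranked genes, at a distance of 0.0552 from the mean of the 8. Depdc1b, Cenpf and Dtl, not drawn, also lay closer to this mean than any single member.

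Paralogs and family relatives of the members were also followed. Reads can be split between near-identical copies, but most of these relatives are not such copies of a member. Of 11 tested of 13 relatives, 5 passed as higher in fl/fl, 0 as lower and 6 did not pass, with a median log2 fold change of 1.96. Wfdc17 and Slpi, which share the whey acidic protein fold with Wfdc21, were higher by 1.72 ± 0.19 and 1.15 ± 0.19 (adjusted p = 0.0120 and 0.0243). Wfdc17 had 618 and 534 CPM in fl/fl libraries, against 194 and 156 CPM in wt/wt libraries. Stfa2l1 and Stfa2 are stefins, cystatin relatives that come in near-identical copies, so their counts are uncertain. Stfa2l1 was higher by 3.41 ± 0.62 (adjusted p = 0.0301; 2.09 when fl/fl 1 was left out, 4.09 when fl/fl 2 was), and limma-voom gave it 0.0782, within a range of 4.35e-33 to 0.267. Stfa2 had 682 and 51 counts in fl/fl libraries, against 0 and 4 counts in wt/wt libraries (edgeR adjusted p = 0.0377, from 2.42e-52 to 0.321 over the alternatives), and fl/fl 1 held most of its counts. Csta1 was at 0 in all 4 libraries.

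Among receptors and partners of the granule proteins, 2 of 10 tested of 12 passed as higher, 0 as lower and 8 did not pass (median 0.11). Prtn3, proteinase 3, which Cd177 holds on the neutrophil surface in human, was higher by 4.19 ± 0.48 (adjusted p = 0.0120; 3.24 without fl/fl 1). Fpr2, the formyl peptide receptor on which cathelicidin acts, had 175 and 71.4 CPM in fl/fl libraries, against 29.1 and 30.5 CPM in wt/wt libraries (2.05 ± 0.39, adjusted p = 0.0342; 1.22 without fl/fl 1). Its relative Fpr1 and Mmp9, the gelatinase that lipocalin 2 binds in human, had log2 fold changes of 2.38 and 2.04 and did not pass (adjusted p = 0.0520 and 0.0681, with ranges of 9.97e-17 to 0.365 and 1.74e-21 to 0.645 over the alternatives). When fl/fl 1 was left out Fpr1 had 1.39 and Mmp9 had 1.21, and when wt/wt 2 was left out Mmp9 had 2.73. Masp2 was at 0 in all 4 libraries.

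Of 9 acute-phase and inflammatory genes listed beside Lcn2, 4 passed as higher in fl/fl, 0 as lower and 5 did not pass (median −0.05). The 5 were Cp, Nfkbiz, Il1b, Il6 and Socs3, named here after their values were seen. Their log2 fold changes ran from −0.53 (Il1b) to −0.05 (Socs3). Steap4, a metalloreductase, had 69.5 and 76.6 CPM in fl/fl libraries, against 2.56 and 5.16 CPM in wt/wt libraries (4.23 ± 0.34, adjusted p = 0.00879; 4.83 without wt/wt 2), and unlike the 8 granule genes its level in fl/fl 1 did not exceed that in fl/fl 2. Saa3 (serum amyloid A3) had 1208 and 164 CPM in fl/fl libraries, against 10.3 and 11.4 CPM in wt/wt libraries (5.98 ± 0.93, adjusted p = 0.0212; 3.88 when fl/fl 1 was left out, 6.81 when fl/fl 2 was). Hp, described above among granule genes, and Orm1 (orosomucoid 1; 2.48 ± 0.41, adjusted p = 0.0237; 1.81 without fl/fl 1) were the others that passed.

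Other neutrophil genes moved beside the secondary granule genes. Of 7 tested primary granule and precursor genes of 8 (Bpi was at 0), 6 passed as higher in fl/fl, 0 as lower and 1 did not pass. With limma-voom 3 of the 7 passed as higher, and with DESeq2 all 7 did. The list together had 1447 and 446 CPM in fl/fl libraries, against 41.5 and 32.9 CPM in wt/wt libraries. Elane (neutrophil elastase) had 296 and 87.8 CPM in fl/fl libraries, against 5.21 and 3.02 CPM in wt/wt libraries (5.55 ± 0.64, adjusted p = 0.0124; 4.39 when fl/fl 1 was left out, 6.19 when fl/fl 2 was). Of 12 mature neutrophil genes, 7 passed as higher, 0 as lower and 5 did not pass. The median log2 fold change of this list was 1.97, or 1.31 when fl/fl 1 was left out. The list together had 26174 and 11187 CPM in fl/fl libraries, against 2488 and 3218 CPM in wt/wt libraries. Most of each sum came from S100a9 and S100a8. S100a9 had 12617 and 5566 CPM in fl/fl libraries, against 923 and 1200 CPM in wt/wt libraries. For S100a8 the values were 8792 and 3084 CPM in fl/fl libraries, against 526 and 498 CPM in wt/wt libraries. S100a9 and S100a8, the calprotectin subunits, were higher by 3.10 ± 0.40 and 3.54 ± 0.48 (edgeR adjusted p = 0.0151 for S100a9 and 0.0163 for S100a8). Leaving out fl/fl 1 gave 2.35 for S100a9 and 2.55 for S100a8. Both sums were larger in fl/fl 1, as was that of the 8 genes. The part of the share of neutrophils and their precursors in the member values was not tested.

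Markers of monocytes and macrophages were read beside the neutrophil genes. The 8 classical monocyte genes together had 8575 and 8448 CPM in fl/fl libraries, against 11242 and 9394 CPM in wt/wt libraries. Of its most expressed genes, Fn1 (fibronectin) was lower at −1.48 ± 0.23 (edgeR adjusted p = 0.0212) and Plac8 did not pass at 0.31. The 6 genes of alternatively activated macrophages, a setting in which Chil3 is also known as a marker, together had 121 and 74.3 CPM in fl/fl libraries, against 721 and 739 CPM in wt/wt libraries. Of the 5 tested, Egr2 passed as lower (−1.19 ± 0.19, adjusted p = 0.0223) and 4 did not pass. Arg1 had 65.6 and 5.02 CPM in fl/fl libraries, against 573 and 612 CPM in wt/wt libraries (−4.07 ± 0.99, edgeR adjusted p = 0.0654, from 4.12e-145 to 0.521 over the alternatives). Leaving out fl/fl 1 gave −6.92 for Arg1, and leaving out fl/fl 2 gave −3.17.

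Kupffer cell genes, 9 in all, together had 297 and 207 CPM in fl/fl libraries, against 912 and 900 CPM in wt/wt libraries. Of the 5 tested, 3 passed as lower (the C1q chains C1qa, C1qb and C1qc), 0 as higher and 2 did not pass. C1qb was lower by −2.83 ± 0.46 (adjusted p = 0.0223; −3.83 without fl/fl 1), Adgre1 did not pass at −0.24, and the defining genes Clec4f, Timd4 and Vsig4 were at or near 0, with at most 15 counts in any library. Lists of other cells the gate could hold were low: eosinophil genes had 46.0 and 62.5 CPM in fl/fl libraries, against 27.0 and 46.4 CPM in wt/wt libraries, and basophil and mast cell genes had 53.6 and 48.9 CPM in fl/fl libraries, against 20.4 and 34.3 CPM in wt/wt libraries. The eosinophil gene Prg2, named after its values were seen, passed as higher, with 17 and 47 counts in fl/fl libraries, against 0 counts in both wt/wt libraries (edgeR adjusted p = 0.0381), and this call was lost without fl/fl 2. Erythroid genes had 36.9 and 95.2 CPM in fl/fl libraries, against 20.8 and 20.4 CPM in wt/wt libraries. B cell genes had 5.47 and 10.3 CPM in fl/fl libraries, against 6.29 and 9.43 CPM in wt/wt libraries, and T and NK cell genes had 1.05 and 1.37 CPM in fl/fl libraries, against 1.44 and 1.58 CPM in wt/wt libraries. The gate gene Ptprc (CD45) had 1095 and 1580 CPM in fl/fl libraries, against 1114 and 1096 CPM in wt/wt libraries. Itgam (CD11b) had 454 and 368 CPM in fl/fl libraries, against 383 and 501 CPM in wt/wt libraries, and neither of these gate genes passed. Itgax (CD11c), against which the sort selected, was lower, with 24.6 and 47.1 CPM in fl/fl libraries, against 158 and 134 CPM in wt/wt libraries (−2.02 ± 0.31, edgeR adjusted p = 0.0197).

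The count of members that passed moved with the test and with the libraries. DESeq2 called 7 members higher, Cd177 being the addition (5.81% of all tested genes), limma-voom 6 (1.89%), edgeR without a filter on low counts 8 (4.48%) and edgeR without TMM scaling 7 (3.39%), again with Cd177. With edgeR, 7 members passed without fl/fl 1 (2.38%) and 8 without fl/fl 2 (5.5%). Every edgeR call named here was lost when either wt/wt library was left out, since then 0 members and 0.0% of all genes passed. At an unadjusted p under 0.05 those fits held 8 members and 1576 genes without wt/wt 1, and 7 members and 2333 genes without wt/wt 2. The log2 fold changes of the 8 genes remained positive in these fits. DESeq2 on 3 libraries, chosen after the data were seen, called 7 members without fl/fl 1 (2.27%), 8 without fl/fl 2 (4.95%), 5 without wt/wt 1 (1.94%) and 6 without wt/wt 2 (2.7%). The members that DESeq2 called without wt/wt 1 were Camp, Ltf, Ngp, Cd177 and Fcnb, to which Wfdc21 was added without wt/wt 2.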

How the data were processed

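The authors deposited raw counts in 1 table, as whole numbers for 55487 Ensembl genes in 4 libraries. Named per the submitters' processing notes are FastQC 0.11.5, Trimmomatic 0.33, STAR 2.5.0 and the GRCm38 build. No counting tool, strand setting or annotation is given in the sources used here. GENCODE M21 supplied exons and, for 55141 identifiers, symbols.

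Counts were tested with edgeR 4.0.16 (R 4.3.3). Genes were kept by filterByExpr (group given, minimum count 10), which left 13496 of the 22696 that had any count. Libraries were scaled by TMM, and a quasi-likelihood F test of genotype alone was run, two-sided, with Benjamini-Hochberg adjustment over all tested genes. A gene passed at an adjusted p under 0.05. Log2 fold changes are of fl/fl to wt/wt, and the prior count was 0.125. Their SE were derived from the test, as the absolute log2 fold change divided by the square root of the F statistic. The biological coefficient of variation was 25.5%. No exact permutation test of 2 libraries against 2 can go below 0.333. CPM are TMM-scaled, and RPKM divide them by the length of the exon union. The steps were tested on simulated data.

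The members and the lists were chosen with earlier results of these data known, so no list was tested as a set. Beside the members and Il10ra, the text names up to 4 genes of smallest p in each pathway list. It also names the 2 most expressed of a marker list with those near 0, and the 5 genes of nearest profile that have a symbol. Alternatives were other scalings, filters, prior count and tests (DESeq2 1.42.0, limma-voom of limma 3.58.1), a replicate block and each library left out. DESeq2 without each library was added after the data were seen. The value of 1 gene of a marker list is not reported here.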

Additional observations from a re-analysis of the deposited data

How the results depend on the processing

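The 8 log2 fold changes stayed positive under every alternative run. Of the members, 6 passed; 7 did with DESeq2, 6 with limma-voom, 7 without TMM scaling, and 8 without a filter on low counts. Over the fits that left out 1 library, between 0 and 8 members passed, and their median log2 fold change, 3.07 with all libraries, was lowest without fl/fl 1 at 2.52 and highest without fl/fl 2 at 3.47. With all libraries 790 genes passed, 363 of them higher in fl/fl. Without a filter 2088 passed (1017 higher), and with DESeq2 1618 (784 higher). Leaving out 1 library gave 0 to 1477 genes (0 to 811 higher) with edgeR and 496 to 1401 (274 to 730 higher) with DESeq2. A fit on 3 libraries takes the spread from the pair that is left, and the lone library is assumed to vary alike. The labels state no pairing by replicate number. Deviations of same-numbered libraries correlated at 0.0215 over all tested genes. This single value cannot exclude a shared replicate effect in part of the genes, and it cannot tell whether the samples were paired. A replicate block gave 1215 genes (602 higher), and with it Cd177 (adjusted p = 0.0209) and Chil3 (0.00294) passed beside the other 6 members. Other scalings moved the median over all genes by less than 0.1 on the log2 scale. The depth (at least 301 counts for each member in each library) is no limit here, and the 2 libraries per genotype are.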

Other observations

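Set against S100a9, an abundant neutrophil transcript, the 8 genes did not all keep 1 ratio, a comparison chosen after values were seen and not tested. Ngp was 42.6% and 43.0% of the S100a9 CPM in fl/fl libraries, against 47.5% and 39.8% in wt/wt libraries, and the groups also overlapped for Camp, Ltf, Chil3 and Fcnb. Lcn2 was 22.8% and 14.7% of S100a9 in fl/fl libraries, against 12.9% and 12.6% in wt/wt libraries, and Wfdc21 was 4.0% and 2.5% in fl/fl libraries, against 1.6% and 1.3% in wt/wt libraries, both higher in fl/fl without overlap. Cd177 was 10.8% and 10.3% in fl/fl libraries, against 31.9% and 27.9% in wt/wt libraries, lower in fl/fl without overlap. Of the 13495 tested genes other than S100a9, 0.467% had such a ratio higher in fl/fl without overlap and 95.7% had it lower. The Cd177 ratio thus lies on the side of most genes. S100a9 itself was higher in fl/fl, by a log2 fold change of 3.10, against a median of 0.02 over all tested genes. Both shares were therefore largely set by the choice of S100a9, and a higher ratio says only that a gene rose more than S100a9.

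Camp, Ngp and Ltf share a stretch of chromosome 9, and the other genes between Camp and Ltf were looked at after values were seen. Of 51 other annotated genes between them, 15 were tested, 1 passed as higher in fl/fl (Cdc25a, a cell cycle phosphatase, at a log2 fold change of 1.73) and 0 as lower. Their log2 fold changes ranged from −0.88 (Nradd) to 1.73, with a median of −0.01, against 3.07 for the 8 secondary granule genes.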
